A study of Mus musculus with 6 samples.

Results

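The genes followed here are 9 members of the oxygen-sensing pathway, namely the transcription factor subunits Hif1a, Epas1 and Arnt, the hydroxylases Egln1, Egln2, Egln3 and Hif1an, the ubiquitin ligase subunit Vhl and the target gene Vegfa. They were chosen by symbol, and all 9 were found among the 35432 genes restored from the deposited table of 35434 rows. The table holds bone marrow-derived macrophages (BMDMs), cells grown with the growth factor M-CSF from the femoral marrow of C57BL/6 mice, as 3 Ctrl libraries without zoledronic acid (ZA) and 3 libraries taken 12 h after ZA, a bisphosphonate drug against bone resorption. The ZA concentration of these libraries is not given in the sources used here, and no source says that the 3 libraries of a group came from separate mice, so that p-values measure the spread between these libraries, which may be technical. Values are FPKM, that is, fragments per kilobase of gene and per 1e6 fragments of the library, whose totals lay between 41230600 and 42155808 fragments.

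Hypoxia-inducible factors (HIFs) are dimers of an oxygen-regulated alpha subunit and a stable beta subunit. When oxygen is present, prolyl hydroxylases modify the alpha subunit, VHL binds it, and the proteasome degrades it, while a further hydroxylase, FIH, blocks its contact with coactivators. Because this control acts on the protein, the transcript level of Hif1a does not report how much HIF-1α protein a cell holds, and protein was not measured in these libraries. In macrophages the pathway is known for its part in glycolysis and in the response to bacterial products.

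HIF dimers bind DNA at a short core, ACGTG or GCGTG, and several genes that encode the sensors carry this core near their start. The stretches below, from RefSeq (GRCm38.p6), are shown to place the core in the genes described here. In each of them the core as read on the gene's strand is in capitals, 5′ to 3′.
Hif1a, chr12:73907720-73907749, plus strand: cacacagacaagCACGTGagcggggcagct
Arnt, chr3:95434349-95434377, plus strand: ccatagtttgggGCGTGtcttctgcccag
Egln1, chr8:124949306-124949334, minus strand: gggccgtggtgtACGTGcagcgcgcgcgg
Egln2, chr7:27166834-27166862, minus strand: agcctcctgtcaACGTGcggttcgcgcac
Egln3, chr12:54204087-54204115, minus strand: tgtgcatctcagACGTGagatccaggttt
The cores shown begin 135 bases before the start site for Hif1a, 29 for Arnt, 68 for Egln1, 48 for Egln2 and 229 for Egln3. Further matches, not shown, began 70 bases before the start for Hif1a, 126 for Egln1, and 34, 137 and 151 for Egln2. Before another start of Egln2, 1 began at 116, and those of Vegfa began at 211 and 218. Both strands were searched for the 2 forms of the core, which read CACGT and CACGC on the other strand. In Hif1a a pair of these matches overlaps as CACGTG. RefSeq windows of 300 bases, from 250 before to 50 after a start, were at hand for 8 of the 9 genes, Epas1 being the exception, and 6 of these 8 held a core in at least 1 window. Among all genes with such windows the share was 46.7%, and among the genes tested here it was 69.2%. The windows of Vhl and Hif1an held no match, nor did 1 of the 2 windows of Vegfa, which says only that these letters are not in those windows. Such a match is a description of sequence and not a binding site.

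No member differed between ZA and Ctrl at an adjusted p under 0.05 (limma with Benjamini-Hochberg adjustment over 9800 genes). Across all genes tested, 0.367% passed this threshold, 20 of them higher and 16 lower in ZA. After centring of the libraries on their medians, 11 genes past it were higher and 18 lower. At an unadjusted p under 0.05, 1 of the 8 members tested passed, Hif1a, which was lower, beside 12.3% of all genes in either direction and 4.85% that were lower. With voom on the recovered fragments 0 of the 8 members tested passed the adjusted threshold, where 132 of all 9800 genes did. The groups did not overlap for 1 member, Arnt, which was higher, beside 18.1% of all genes. Of the 8 members tested 5 had a log2 fold change above 0, beside 56.9% of all genes. The members' log2 fold changes had a median of 0.01, as did all genes tested, and ranged from -0.11 for Epas1 to 0.06 for Arnt.

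**Figure D1:**
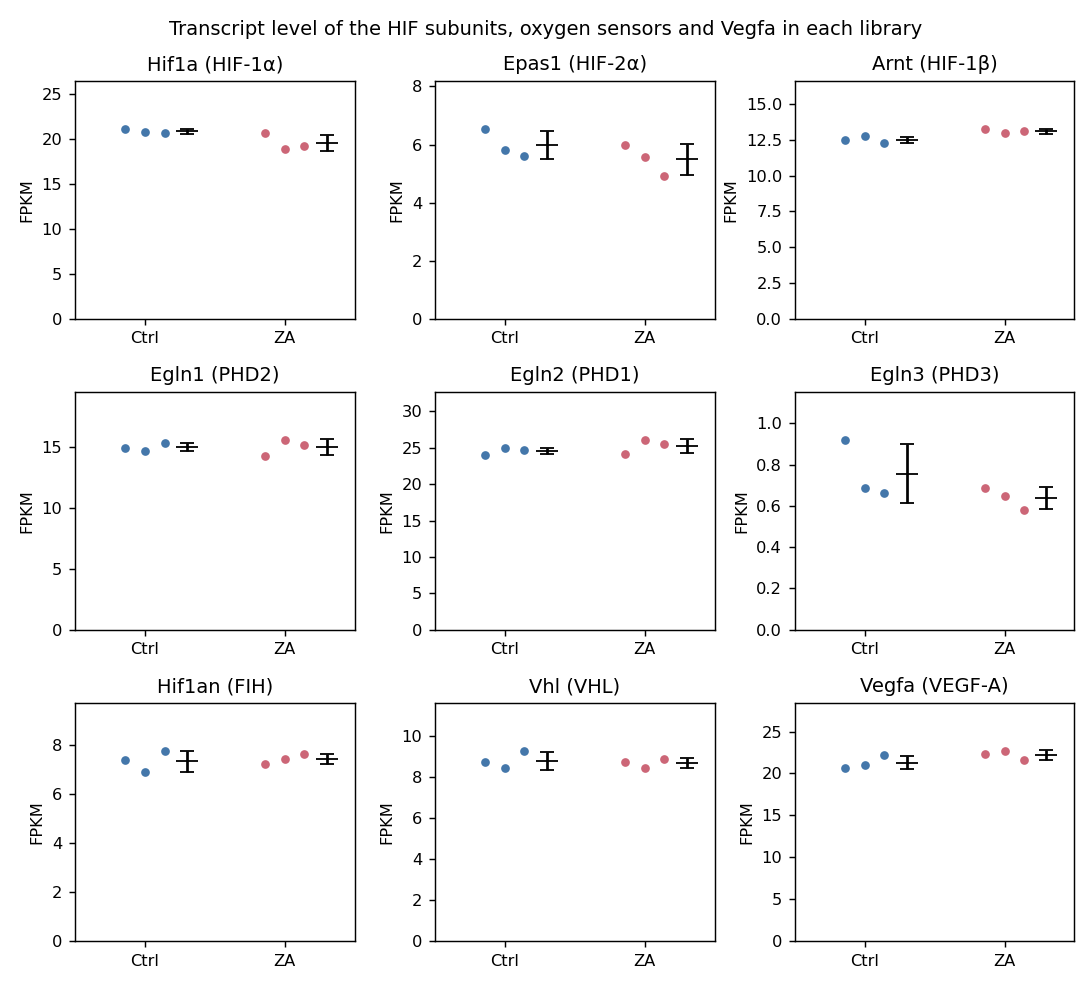
FPKM of the 9 genes in each library (blue, Ctrl 1 to 3 from left to right; red, ZA 1 to 3), with the group's mean ± SD beside the points (n = 3) and each axis starting at 0. The groups overlap in every panel but that of Arnt, where the ZA values of 13.0 to 13.3 lie above the Ctrl values of 12.3 to 12.8.

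Hif1a encodes HIF-1α, the oxygen-regulated subunit that drives glycolytic genes. Ctrl 1, 2 and 3 had 21.2, 20.8 and 20.7 FPKM, and ZA 1, 2 and 3 had 20.7, 18.9 and 19.2. ZA 2 and ZA 3 lay below every Ctrl library, while ZA 1 lay within the Ctrl range, so that the groups overlapped. The Ctrl mean was 20.9 ± 0.263 and the ZA mean 19.6 ± 0.926 (SD, n = 3), and the spread in ZA was the wider one. The log2 fold change was -0.09 (95% interval -0.17 to -0.002, limma, unadjusted p = 0.0466, adjusted p = 0.398). As a change in FPKM + 1, the interval ran from -11.1% to -0.114%. The unadjusted p was under 0.05 in 9 of 16 settings and ranged from 0.00482 to 0.157 in limma. It was not under it without Ctrl 1 (0.118), Ctrl 2 (0.0852), Ctrl 3 (0.0697), ZA 2 (0.157) or ZA 3 (0.124), without a filter on low values (0.0506) or with an untrended variance prior (0.0625). Epas1, Arnt and Vegfa were each under it in 1 setting. Without ZA 1 the log2 fold change of Hif1a was -0.12 with an adjusted p of 0.148, and over all 15 alternatives the adjusted p from limma lay between 0.148 and 0.639. Hif1a rested on 3932 to 4402 fragments per library, for which counting alone gives a coefficient of variation of 1.54%, against 3.45% between replicates. In GENCODE M21, exons of Hif1a share 330 bases with those of the antisense gene Gm15283, which was listed at 0 in every library, and 148 bases with those of Gm49321 on the same strand. Whether the counting used strand is not given in the sources used here.

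Epas1 encodes HIF-2α, the alpha subunit best known from endothelial cells and from the control of erythropoietin. The Ctrl libraries had 6.55, 5.81 and 5.62 FPKM of Epas1, and the ZA libraries 6.0, 5.56 and 4.93. Ctrl 1 was the highest and ZA 3 the lowest of the 6, and ZA 1 lay above Ctrl 2 and Ctrl 3. Epas1 had a log2 fold change of -0.11 (95% interval -0.27 to 0.06, adjusted p = 0.577 from limma). Without ZA 3 it was -0.04 (adjusted p = 0.868), and without Ctrl 1 it was -0.05 (adjusted p = 0.848). The replicate coefficient of variation was 9.0%, the widest among the members tested, against 2.77% from counting. Marker transcripts of other cell types varied over the same libraries. The 5 stromal markers, of which Col1a2 and Dcn were the most abundant, summed to 33.1, 25.1 and 18.2 FPKM in Ctrl and to 23.2, 20.2 and 16.1 in ZA. The 5 endothelial markers, with Tek below 0.1 FPKM in every library, summed to 7.71, 6.47 and 5.88 in Ctrl and to 6.06, 5.74 and 5.52 in ZA. Ctrl 1 was the highest and ZA 3 the lowest library for both sums too, and likewise for the neutrophil and progenitor sum (42.1 and 25.8) and the osteoclast sum (46.7 and 38.4). The endothelial marker Kdr did not share this order, with 3.61, 3.54 and 3.57 FPKM in Ctrl and 3.65, 3.67 and 3.96 in ZA. The macrophage sum ran the other way, lowest in Ctrl 1 (23458) and highest in ZA 3 (27836). The T cell, B cell, dendritic cell and erythroid sums were highest in Ctrl 2, Ctrl 3, ZA 2 and Ctrl 2. They were lowest in ZA 1, ZA 3, Ctrl 3 and Ctrl 3, in the same order. The part of other cell types in the value of Epas1 was not tested. In bulk RNA, fewer cells of a type and less RNA per cell cannot be told apart.

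Arnt encodes HIF-1β, the partner that both alpha subunits need to bind DNA. In Ctrl it stood at 12.5, 12.8 and 12.3 FPKM, and in ZA at 13.3, 13.0 and 13.1. Every ZA library exceeded every Ctrl library. The groups differed by 0.06 on the log2 scale (95% interval -0.01 to 0.13, adjusted p = 0.472 from limma), from a Ctrl mean of 12.5 ± 0.232 to a ZA mean of 13.1 ± 0.149 (SD, n = 3). Groups that did not overlap, with ZA the higher, were found for 11.4% of all genes tested. Arnt was the steadiest member, with 2345 to 2510 fragments per library. Its replicate coefficient of variation was 1.53%, below the 2.03% that counting alone gives. The log2 fold change of Arnt stayed between 0.05 and 0.07 over the 15 alternatives, with adjusted p between 0.423 and 0.656.

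The prolyl hydroxylases PHD1, PHD2 and PHD3, encoded by Egln2, Egln1 and Egln3, mark the alpha subunits for VHL. PHD2 is known as the main enzyme that sets HIF-1α in normal oxygen, and Egln1 and Egln3 are themselves known HIF targets. Egln1 was at 14.9, 14.7 and 15.3 FPKM in Ctrl and at 14.3, 15.6 and 15.2 in ZA. The ZA libraries included both the lowest and the highest of the 6, and the log2 fold change was 0.005 (95% interval -0.08 to 0.09, adjusted p = 0.972 from limma). The sign of this value turned after centring on medians (-0.01). For Egln2 the Ctrl values were 24.0, 24.9 and 24.7 and the ZA values 24.2, 26.1 and 25.5. ZA 2 and ZA 3 lay above all Ctrl libraries and ZA 1 did not. The log2 fold change of Egln2 was 0.04 (95% interval -0.04 to 0.12, adjusted p = 0.672 from limma). Exons of Egln2 share 11 bases with those of Cyp2t4 on the opposite strand, which was listed at 0 in every library.

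Egln3 was by far the lowest member and, with a mean of 0.698 FPKM, was under the minimum mean of 1 for the test. It was at 0.921, 0.689 and 0.662 FPKM in Ctrl and at 0.686, 0.649 and 0.579 in ZA. These values came from 118, 88 and 85 fragments in Ctrl and from 87, 83 and 75 in ZA, so counting alone gives a coefficient of variation of 10.6%. Ctrl 1 stood above the other 5 libraries, and ZA 1 lay between Ctrl 3 and Ctrl 2. On the recovered fragments and without the minimum, limma's voom gave a log2 fold change of -0.23 (95% interval -0.67 to 0.20, adjusted p = 0.782), an alternative added after the data had been seen. Egln3 varied by 14.6% between replicates, and the interval includes differences in both directions.

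Hif1an encodes FIH, the asparaginyl hydroxylase that keeps HIF alpha subunits from their coactivators. The Ctrl libraries had 7.39, 6.91 and 7.77 FPKM of it, and the ZA libraries 7.22, 7.44 and 7.63. All 3 ZA values fell inside the Ctrl range. Hif1an differed by 0.01 on the log2 scale (95% interval -0.09 to 0.12, adjusted p = 0.932 from limma), and the sign of this value turned without Ctrl 2 (-0.03). Vhl encodes the protein that recognises hydroxylated alpha subunits for the ubiquitin ligase. Vhl was at 8.72, 8.43 and 9.29 FPKM in Ctrl and at 8.72, 8.45 and 8.90 in ZA. Again the ZA values lay inside the Ctrl range. The log2 fold change of Vhl was -0.02 (95% interval -0.11 to 0.08, adjusted p = 0.903 from limma), and its sign turned without Ctrl 3 (0.02).

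Vegfa encodes the vessel growth factor VEGF-A and is one of the best known HIF targets. Ctrl had 20.7, 21.0 and 22.2 FPKM of Vegfa and ZA had 22.3, 22.7 and 21.6. ZA 1 and ZA 2 exceeded all Ctrl libraries, and ZA 3 lay below Ctrl 3. The group means were 21.3 ± 0.771 for Ctrl and 22.2 ± 0.556 for ZA (SD, n = 3), with a log2 fold change of 0.06 (95% interval -0.02 to 0.14, adjusted p = 0.540 from limma). Over the 15 alternatives the log2 fold change of Vegfa lay between 0.04 and 0.09. The ratio of Vegfa to Hif1a, which does not depend on the library total and was looked at after the values had been seen, stood at 0.979, 1.01 and 1.07 in the Ctrl libraries and at 1.08, 1.20 and 1.12 in those with ZA. This ratio was higher in each ZA library than in any Ctrl library, by a small step between Ctrl 3 and ZA 1. Of single genes tested, 11.4% were higher without overlap, and the share among ratios of genes was not computed. A ratio of genes already seen to differ in opposite directions favours separate groups, so it is given as a description without a test.

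**Figure D2:**
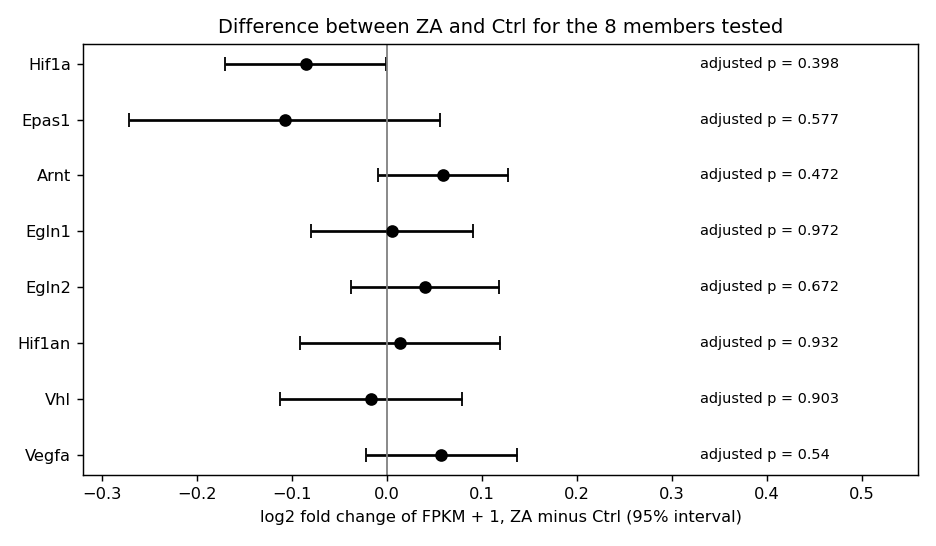
Log2 fold change of FPKM + 1 between ZA and Ctrl (points, ZA minus Ctrl) with its 95% interval (bars) from limma for the 8 members tested, n = 3 per group, with the adjusted p beside each. The interval of Hif1a ends just below 0 at -0.002, and the intervals of the other 7 include 0.

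Because FPKM is scaled by gene length, levels can be set in order across the genes. The annotation behind these lengths is not given, so the order holds only for the lengths used. Egln2 was the highest, with a mean over all 6 libraries of 24.9 FPKM, followed by Vegfa at 21.8, Hif1a at 20.2, Egln1 at 15, Arnt at 12.8, Vhl at 8.75, Hif1an at 7.39, Epas1 at 5.74 and Egln3 at 0.698. Vegfa and Hif1a were the only neighbours in this order whose ranges overlapped, and Vegfa was the higher of the pair in 5 of 6 libraries, Ctrl 1 being the exception. The 7 other pairs of neighbours kept their order in 6 of 6 libraries. Among all genes tested, Egln2 stood at the 76.7th percentile of mean FPKM, Hif1a at the 72.5th and Epas1 at the 36.4th. Across the 6 libraries the highest value exceeded the lowest by a factor of 1.08 for Arnt, 1.12 for Hif1a, 1.33 for Epas1 and 1.59 for Egln3.

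**Figure D3:**
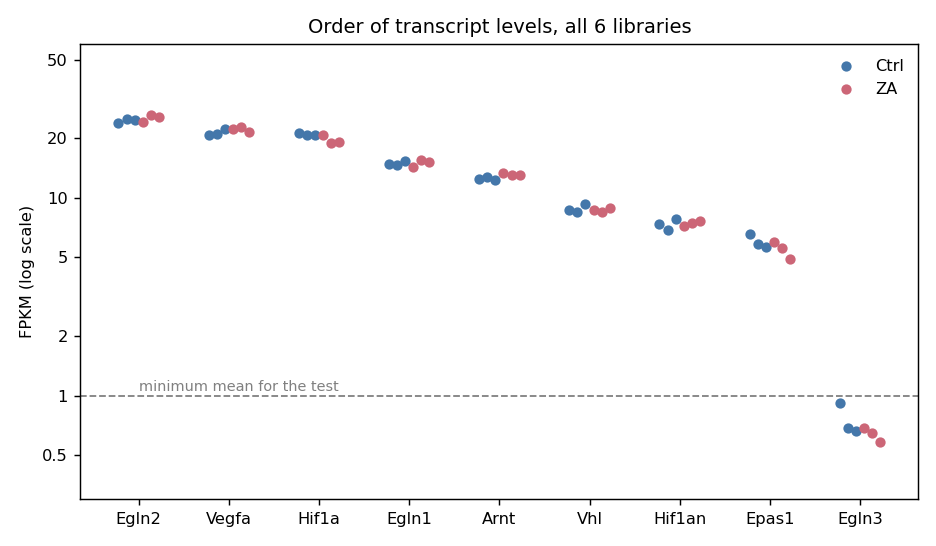
FPKM of the 9 genes on a log axis in order of their mean, with Ctrl (blue) and ZA (red) libraries 1 to 3 from left to right. Egln2 is at 24.0 to 26.1 in all libraries, the ranges of Vegfa and Hif1a overlap, and Egln3 lies under the dashed line at an FPKM of 1, the minimum mean for the test.

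Shares within a family show the balance between its members apart from the library total. Hif1a made up 77.7% ± 1.18 of the summed FPKM of Hif1a and Epas1 in Ctrl libraries and 78.1% ± 1.26 after ZA (SD, n = 3), a difference smaller than the spread within either group (exact permutation test, two-sided, p = 0.7). Among the prolyl hydroxylases, Egln2 held 60.9% ± 0.789 without ZA and 61.7% ± 0.0746 with it (SD, n = 3, exact permutation test, p = 0.4). Egln1 held 37.2% ± 0.601 and 36.7% ± 0.178 (exact permutation test, p = 0.4), and Egln3 held 1.88% ± 0.371 and 1.56% ± 0.175 (exact permutation test, p = 0.3). Over these 4 comparisons the Benjamini-Hochberg adjusted values of the exact permutation tests were 0.533 to 0.7. With 3 libraries against 3, no such test can go below 0.1.

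**Figure D4:**
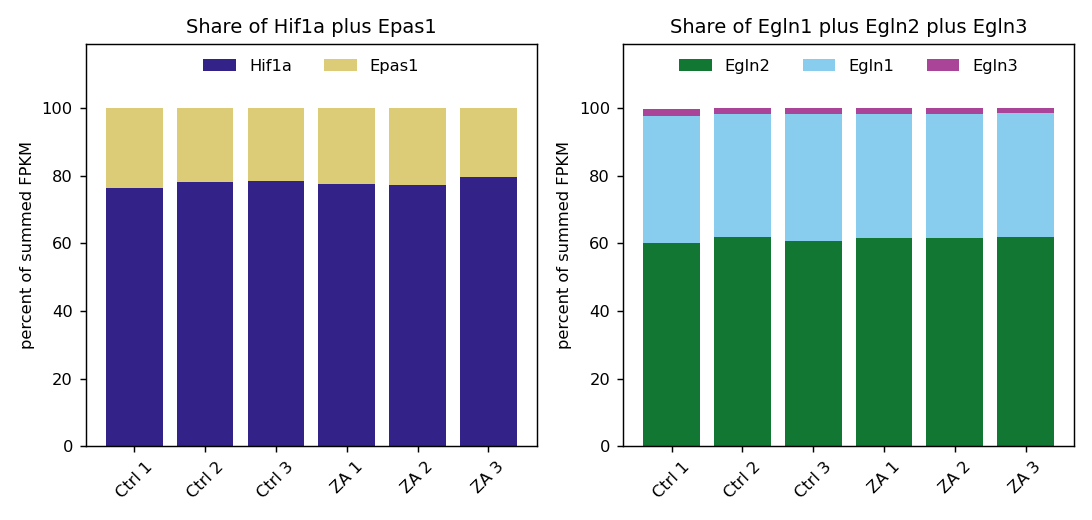
Percent of summed FPKM held by Hif1a and Epas1 (left) and by Egln2, Egln1 and Egln3 (right) in each library, as stacked bars from 0. Hif1a holds between 76.4% and 79.6%, and Egln2 between 60.2% and 61.8%.

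Genes whose values ran most like those of Hif1a over the 6 libraries were Nup205, Xxylt1 and Pigp, with a Pearson r of log2(FPKM + 1) of 0.979, 0.979 and 0.978. Nup205 encodes a nuclear pore protein, Xxylt1 a xylosyltransferase and Pigp a subunit of the enzyme that begins glycosylphosphatidylinositol anchors. Pigp, for one, was at 6.75, 6.39 and 6.55 FPKM in Ctrl and at 6.58, 5.34 and 5.74 in ZA, with ZA 2 and ZA 3 the lowest as for Hif1a. Most like Vegfa were Bud23, Dmxl1 and Arrdc1, with r of 0.989, 0.988 and 0.987. Arrdc1, an arrestin-domain protein, had 20.1, 20.3 and 21.5 FPKM in Ctrl and 21.4, 22 and 21.1 in ZA. These are the extremes of 9799 genes over 6 points, so they are descriptions of pattern and not of shared function. Between Hif1a and Egln2 r was -0.932, and between Hif1a and Vegfa it was -0.574, over the same 6 libraries, which share their 2 groups.

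Beyond the members, 120 genes in and around the pathway, in 8 lists, were found in the table, of which 93 were tested. They comprise partners and degradation factors of HIF, other oxygen-dependent enzymes, targets of 5 kinds, other VEGF genes and regulators of Hif1a expression. Of the 93, 52 were higher and 41 lower in ZA, with a median log2 fold change of 0.005 beside 0.01 for all genes tested. At an unadjusted p under 0.05 from limma, 5 were higher and 11 lower, together 17.2% beside 12.3% of all genes. By direction the background was 7.50% of all genes higher and 4.85% lower. At an adjusted p under 0.05, 1 list gene passed, Aldoc, which was higher, as were 0.204% of all genes at this threshold.

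Of the 24 glucose genes, 13 were higher and 11 lower, with a median log2 fold change of 0.01. Aldoc, an aldolase isoform of glycolysis, was at 9.59, 10.2 and 10.6 FPKM in Ctrl and at 13.8, 13.5 and 14.8 in ZA. Every ZA library lay above every Ctrl library, and Aldoc rose by 0.44 on the log2 scale (95% interval 0.33 to 0.54, adjusted p = 0.0304 from limma). Aldoc passed in 9 of 15 settings. The call was lost without Ctrl 1 (adjusted p = 0.0982), Ctrl 2 (0.183), ZA 2 (0.127) or ZA 3 (0.0541), without a filter on low values (0.196) and with an untrended variance prior (0.0995), while the log2 fold change lay between 0.40 and 0.47 in all alternatives and their adjusted p between 0.00115 and 0.196. Gpi1, which interconverts glucose 6-phosphate and fructose 6-phosphate, had 142, 139 and 141 FPKM in Ctrl and 151, 152 and 150 in ZA, without overlap (log2 fold change 0.10, adjusted p = 0.0948 from limma). Eno2, an enolase, had 5.05, 5.16 and 5.15 in Ctrl and 4.99, 4.42 and 4.19 in ZA (log2 fold change -0.15, adjusted p = 0.341 from limma). Gpi1 passed with voom on the recovered fragments (adjusted p = 0.0399, the lowest of a range up to 0.325), and Eno2 passed under no alternative. These 3 glycolytic genes thus did not share a direction.

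The largest statistics among the targets of vessels, matrix and pH belonged to genes that were lower in ZA. Hmox1, the heme oxygenase, was at 226, 216 and 215 FPKM in Ctrl and at 202, 197 and 199 in ZA (log2 fold change -0.13, adjusted p = 0.0921 from limma). For Tfrc, the transferrin receptor, the Ctrl values were 67.1, 67.9 and 70.9 and the ZA values 62.4, 59.4 and 56.1 (log2 fold change -0.21, adjusted p = 0.0938). Angptl4, a secreted inhibitor of lipoprotein lipase, was at 7.14, 7.67 and 6.72 in Ctrl and at 6.10, 6.02 and 5.45 in ZA (log2 fold change -0.25, adjusted p = 0.113). The groups did not overlap for any of the 3, as for 6.76% of all genes with ZA the lower, and none passed the adjusted threshold. On the recovered fragments with voom, Tfrc and Hmox1 did pass (adjusted p = 0.0125 and 0.0277), and over all alternatives their adjusted p lay between 0.0125 and 0.284 and between 0.0277 and 0.268. Of the 11 genes of this list tested, 5 were higher and 6 lower.

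In the remaining 6 lists, with 59 genes tested, 0 passed the adjusted threshold in limma, 0 with voom, and 8 (13.6%) were at an unadjusted p under 0.05, beside 0.367% and 12.3% of all genes in limma at the adjusted and the unadjusted threshold. Of the 7 mitochondrial targets tested, 5 were higher and 2 lower, and after centring on the median only 1 was higher. Bnip3, a mitophagy receptor, had 12.9, 10.8 and 12.4 FPKM in Ctrl and 12.6, 13.4 and 13.4 in ZA (log2 fold change 0.12, adjusted p = 0.477 from limma). The largest statistics of the others in this list were those of Pdk1, the kinase that restrains pyruvate dehydrogenase (log2 fold change -0.07), and Fam162a (-0.11). In the list of targets on transcription, chromatin and mTOR signalling, 6 of 9 genes were higher. This list also holds Wsb1 and Pfkfb3, and Pfkfb3 (log2 fold change 0.05) is counted among the glucose genes as well. The 3 largest statistics of the list, of Bhlhe41 (-0.07), Ddit4 (-0.28) and Bhlhe40 (-0.12), had negative log2 fold changes. Ddit4, an inhibitor of mTOR signalling, had only 116 to 221 fragments per library.

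Among genes of activated macrophages known as HIF targets, 2 of the 5 tested were higher. Ccl2, a monocyte chemoattractant, was at 12.7, 10.7 and 8.67 FPKM in Ctrl and at 8.64, 8.53 and 7.21 in ZA, with the lowest Ctrl value next to the highest ZA value (log2 fold change -0.35, adjusted p = 0.297 from limma). Cd274, the ligand of PD-1, had a log2 fold change of 0.08 (adjusted p = 0.353) and Mif, a cytokine, of -0.07 (adjusted p = 0.588). Il1b, which encodes IL-1β, was just under the minimum mean and was singled out after its values had been seen. It was at 0.814, 0.764 and 0.647 FPKM in Ctrl and at 0.925, 1.38 and 1.36 in ZA, from 51 to 64 fragments in Ctrl and 72 to 108 in ZA. All ZA values exceeded all Ctrl values (log2 fold change 0.70, adjusted p = 0.348 from voom without the minimum). Nos2 and Arg1, markers of opposite macrophage states, stayed at or below 0.164 and 0.0162 FPKM in every library.

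Other VEGF genes and the factors around HIF showed small differences. Of the VEGF genes 4 were tested and 3 were higher, with log2 fold changes of 0.08 for Vegfb and 0.06 for the receptor Kdr, and -0.06 for the coreceptor Nrp1 (adjusted p = 0.484, 0.621 and 0.373 from limma). The HIF-3α gene Hif3a did not exceed 0.00327 FPKM in any library. Of 21 genes tested in the list of HIF partners and degradation factors, 10 were higher and 11 lower. This list also holds other oxygen-dependent enzymes, namely Pam, Ado, Kdm5a, Kdm5c and Kdm6a. Elob, which joins VHL in its ligase, was at -0.08, and the chaperone genes Hsp90ab1 and Hsp90aa1 were at 0.05 and -0.06. Of 13 regulators of Hif1a expression, with genes of mTOR signalling and translation among them, 9 were higher. They included the NF-κB subunit gene Nfkb1 (log2 fold change 0.08, adjusted p = 0.341 from limma) and Zfp36l1 (0.04), while the translation factor gene Eif4e was at -0.08.

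**Figure D5:**
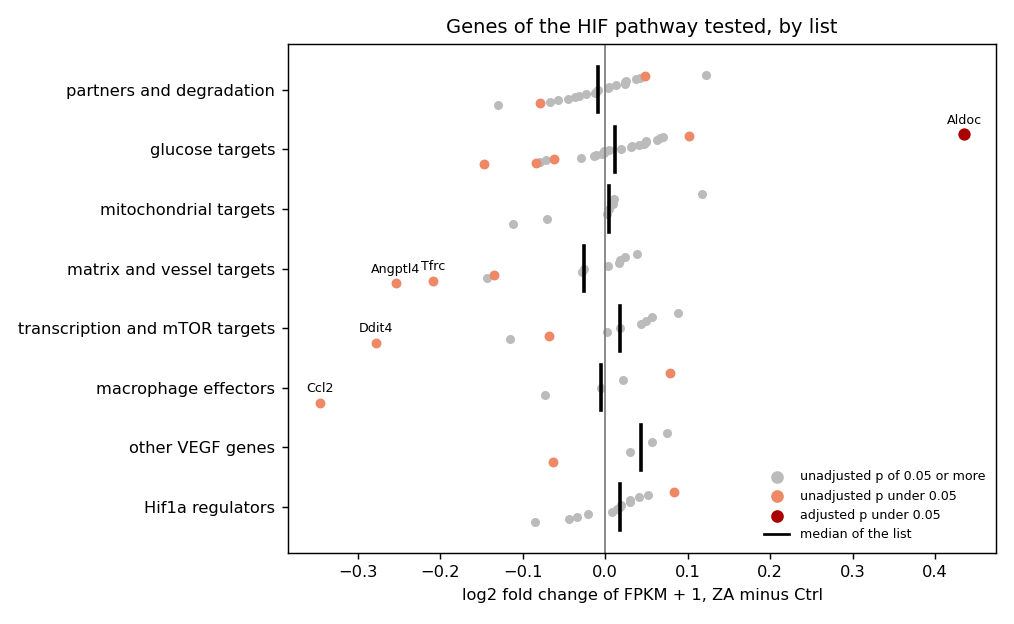
Log2 fold change of FPKM + 1 (ZA minus Ctrl) of each gene tested in the 8 lists, with the list's median as a black bar, genes with an unadjusted p under 0.05 from limma in orange and the 1 gene with an adjusted p under 0.05, Aldoc, in dark red. Medians lie between -0.03 and 0.04, and the lowest value is that of Ccl2 at -0.35.

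The labelled cell type was checked with 8 macrophage markers, all of which were tested and whose sum lay between 23458 and 27836 FPKM over the 6 libraries, mostly from Lyz2. Csf1r, the M-CSF receptor, was at 767 to 777 FPKM in Ctrl and 825 to 848 in ZA (adjusted p = 0.0701 from limma), and Adgre1, which encodes F4/80, at 526 to 538 and 567 to 593 (adjusted p = 0.0785). Both were higher in every ZA library than in any Ctrl library, as were 11.4% of all genes tested, without passing the adjusted threshold. They had the lowest adjusted p of the 8 markers. Cd68 was also higher without overlap, at a log2 fold change of 0.02. The groups overlapped for Itgam, Fcgr1, Lyz2, Aif1 and Mertk, and Mertk was at -0.03. Markers of neutrophils and myeloid progenitors summed to 29.0 to 42.1 FPKM in Ctrl and 25.8 to 30.9 in ZA, with Ly6g at 0 in every library. T cell markers summed to 0.235 to 0.291 FPKM in Ctrl and 0.0955 to 0.213 in ZA, and B cell markers to 2.32 to 3.01 and 2.06 to 2.32. Both sums were lower in ZA without overlap, though the nearest B cell sums were equal to 3 digits. Of single genes tested, 6.76% were lower without overlap, and no such share was computed for sums of low genes like these. The T cell sum came from Cd3e, Cd3d and Cd3g, with at most 5, 4 and 10 fragments per library and below the minimum for the test. Of these, Cd3d had the higher mean in ZA (0.0371 against 0.0158 FPKM). Dendritic cell markers did not exceed 0.459 in sum, and erythroid markers 2.63. Osteoclast markers summed to 40.1 to 46.7 in Ctrl and 38.4 to 42.2 in ZA, from Acp5 and Ctsk, with Calcr, Ocstamp and Oscar below 0.1 in every library.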

How the data were processed

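RNA of BMDMs was sequenced in 3 Ctrl and 3 ZA libraries as 150-base read pairs. The study's methods name the VAHTS kit, and the labels name a SMARTER kit as well. What the authors deposited is a single table with an FPKM value per gene and library. The submitters' processing notes name the build mm9, while the aligner, counter and annotation are not given in the sources used here, and no coordinates were read for the deposited values. Groups and replicate numbers come from the labels, and 0 columns of values were left unused.

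In 35423 of 35434 rows the symbol and the 6 values are not separated. Each row was split where the shape of its numbers allowed. If that left more than 1 reading, the reading was kept in which all values came from whole fragments, given the gene's length and the library total. This restored 35432 rows, which hold 99.7% of each library's fragments, and 2 were left out. All 11 intact rows were restored identically when joined. Whole fragments decided 10468 rows.

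For the comparison, log2(FPKM + 1) of the 9800 genes whose mean FPKM reached 1 was fitted in R 4.3.3 by limma 3.58.1, using lmFit and a trended eBayes. Tests were two-sided and p-values were adjusted by Benjamini and Hochberg's method. A fold change on this scale understates that of low genes. At the median length of these genes, 3 fragments give an FPKM of 0.0213, and a gene tested had a median of 1389 fragments. Counting error was taken from recovered fragments and leaves out amplification. Row cutting and limma were tested on simulated data. For limma the simulated libraries were independent with a set spread, so that test does not cover the spread or any shared structure of these libraries. Libraries of a group differed by more than sampling noise (chi-square per gene 3.52 to 9.73).

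The genes named are the 9 members, in each list the 3 genes whose moderated statistic was largest, and the 3 genes most like Hif1a and Vegfa. Members and lists were chosen with earlier results of these data known. Alternative settings were voom on recovered fragments, a replicate block, each library left out, an untrended variance prior, quantile normalization, centring on medians, a pseudocount of 0.1, and a minimum mean FPKM of 5 or none. Voom without the minimum was added after the data had been seen. Python 3.11.15, NumPy 2.4.6, pandas 2.3.3, SciPy 1.17.1 and Matplotlib 3.10.9 were used.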

Additional observations from a re-analysis of the deposited data

How the results depend on the processing

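No member passed an adjusted p of 0.05 under any alternative, and Hif1a, Epas1, Arnt, Egln2 and Vegfa kept their direction in all 15 of theirs. The log2 fold change of Egln1 turned to -0.0071 after centring on the median, to -0.0107 after quantile normalization, and lay between -0.0201 and 0.0376 with each library left out. That of Hif1an lay between -0.0255 and 0.0494, and that of Vhl between -0.0454 and 0.0171, with each library left out. The share of Hif1a in Hif1a and Epas1 differed by -0.289 to 0.894 percentage points with each library left out, against 0.437 with all. The other shares kept their sign, also as shares of fragments.

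Over all genes, the 36 calls (20 higher, 16 lower) became 1 without a filter (1 and 0), 1 with a variance prior without a trend (0 and 1), 20 after quantile normalization (10 and 10) and 132 with voom on fragments (71 and 61). Centring left 11 higher. With each library left out they numbered 0 to 25 (0 to 14 higher, 0 to 11 lower), with 0 without ZA 2, where limma gave 973 genes at an unadjusted p under 0.05. The cause of these shifts was not tested.

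A replicate block raised the calls to 78 (41 higher, 37 lower). Across genes, the deviations of libraries that share a number correlated at 0.284, 0.0393 and 0.280 for numbers 1, 2 and 3. Each Ctrl library correlated best with the ZA library of its own number. The main fit did not take the libraries as pairs because the labels name no shared animal or day. A structure shared by libraries of the same number therefore remains possible. Under the block the adjusted p from limma was 0.265 for Hif1a and 0.280 for Epas1, with unadjusted p of 0.03 and 0.0338. For Epas1 this was the only setting with an unadjusted p under 0.05.

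Among the lists, the mitochondrial targets higher in ZA went from 5 to 1 after centring and 3 after quantile normalization, and to 1 to 5 with a library left out. Vessel and matrix targets higher went from 5 to 3 with a minimum mean of 5 and to 3 to 5 with a library left out. In the list on transcription, chromatin and mTOR signalling, the genes higher went from 6 to 3 with that minimum. The macrophage effectors higher went from 2 to 6 without a filter. Of all list genes at an unadjusted p under 0.05, 3 were higher after centring and 3 after quantile normalization, and the lower ones numbered 7 with a prior without a trend and 5 to 9 with a library left out. Among the members, Egln3 rests on the fewest fragments, 75 to 118 per library.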
